A study of Mus musculus with 48 samples.

Results

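The clustered protocadherins are cell-surface adhesion proteins of the cadherin superfamily, encoded side by side in 3 tandem gene clusters called alpha, beta and gamma. Their members were chosen by name, as every gene whose symbol is Pcdha, Pcdhac, Pcdhb, Pcdhga, Pcdhgb or Pcdhgc followed by a number. This gave 58 of the 24421 gene entries measured, with 14 in the alpha cluster, 22 in the beta cluster and 22 in the gamma cluster. No measured value entered the choice.

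In the alpha and gamma clusters each variable first exon has its own promoter and is spliced to constant exons that the whole cluster shares, whereas each beta gene is a single exon. A neuron switches on a small, largely random set of these promoters, through DNA methylation and through chromatin loops held by CTCF and cohesin, and the resulting combination lets its branches recognise and avoid each other. The C-type members Pcdhac1, Pcdhac2, Pcdhgc3, Pcdhgc4 and Pcdhgc5 stand apart in sequence from the other variable exons, and several of them are expressed by most cells of a type rather than by random choice. Pcdhac2 serves the tiling of serotonergic axons, and gamma proteins also act between astrocytes and neurons as astrocytes take on their branched form.

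RNA-seq covered 16 groups of 3 libraries, 48 in all, each made from fluorescent cells sorted out of mouse brain. Most groups, 12 of them, came from Aldh1l1-GFP mice carrying the label Gq-CNO or Gq-Saline, where green fluorescent protein (GFP) marks astrocytes. A Gq-coupled designer receptor is switched on by the drug CNO (clozapine-N-oxide), and which cells carried it is not stated in the labels. GFP astrocytes, and mCherry-positive (mCh) cells that the labels call neurons, were taken from olfactory bulb (OB), cortex (CX) and hippocampus (HP) of these mice. OB GFP astrocytes of Aldh1l1-GFP mice formed 2 more groups, CNO-control and untreated. The remaining 2 groups were OB mCh astrocytes of Slc22a3-FF mice, whose organic cation transporter gene Slc22a3 carries floxed alleles, given Gfap-Cre (labelled Slc22a3-cKO) or Gfap-mCh (flox control). Cre was driven by the promoter of Gfap, an intermediate filament gene of astrocytes. Ages are not given, nor whether the libraries of a group are different animals, and the p-values below describe only the variation among these libraries.

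Libraries held 0.228 to 24.7 M reads assigned to genes (1 M is 1000000 reads), with a median of 5.71 M, and 3 held under 1 M. Levels across tables are given in RPM (reads per 1000000 reads assigned to genes), from reads recovered out of the deposited values, because the 6 tables were normalised separately. The libraries differed from their labels in part. Summed over 14 astrocyte markers, GFP sorts of Gq mice had a median of 102276 RPM, and mCh sorts of Gq mice had 9956 RPM. The mCh sorts labelled as neurons had more oligodendrocyte marker signal (median 29843 RPM) and microglial marker signal (11660 RPM) than neuron marker signal (2766 RPM). The mCh sorts labelled as astrocytes had a median of 6944 RPM of astrocyte markers and 10312 RPM of microglial markers. Among GFP sorts, CX Gq-Saline library 4 stood apart with 3236 RPM of microglial markers, where the median of the GFP sorts of Gq mice was 143 RPM. In sorted bulk libraries, fewer cells of a type and less RNA per cell cannot be told apart.

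All 3 clusters lie on chromosome 18 (mm10, GENCODE release 21 for mouse) on the forward strand. The alpha cluster spans 36930285 to 37188897, the beta cluster 37264998 to 37521419 and the gamma cluster 37661775 to 37841873. Over all libraries 155005 reads fell on gamma genes, 32402 on beta genes and 2725 on alpha genes. Gamma genes therefore held a median of 81.0% of a library's clustered protocadherin reads, beta genes 17.6% and alpha genes 1.13%. Constant exons make up as much as 2864 bases of an annotated alpha gene and 2119 bases of a gamma gene. Reads there cannot be assigned to 1 member, so low alpha and gamma counts can be blurred by how the authors' counting treated shared exons, which the sources used here do not give.

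The summed gamma level was 178 to 769 RPM in GFP sorts of Gq mice (median 522 RPM) and 168 to 553 RPM in mCh sorts (median 279 RPM). The lowest GFP value came from CX Gq-Saline library 4, the library with the high microglial signal. The mCh astrocyte sorts had 182 to 627 RPM, and the OB GFP sorts outside the Gq design lay close together at 475 to 560 RPM. Summed beta levels had medians of 73.5 RPM in GFP sorts and 95.0 RPM in mCh sorts of Gq mice, with ranges that overlapped widely (27.4 to 238 RPM and 27.33 to 189 RPM). The mCh astrocyte sorts reached a median of 173 RPM of beta reads.

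Alpha transcripts were the scarcest. Their sum was 0 in 8 of 24 GFP libraries and had a median of 1.39 RPM in GFP sorts of Gq mice, against 16.1 RPM in mCh sorts, none of which was at 0. All 6 OB mCh libraries had alpha reads, at 7.89 to 38.6 RPM. Among GFP libraries HP Gq-CNO library 4 differed, with 50.8 RPM of alpha reads, the highest alpha sum of the 48 libraries.

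**Figure D1:**
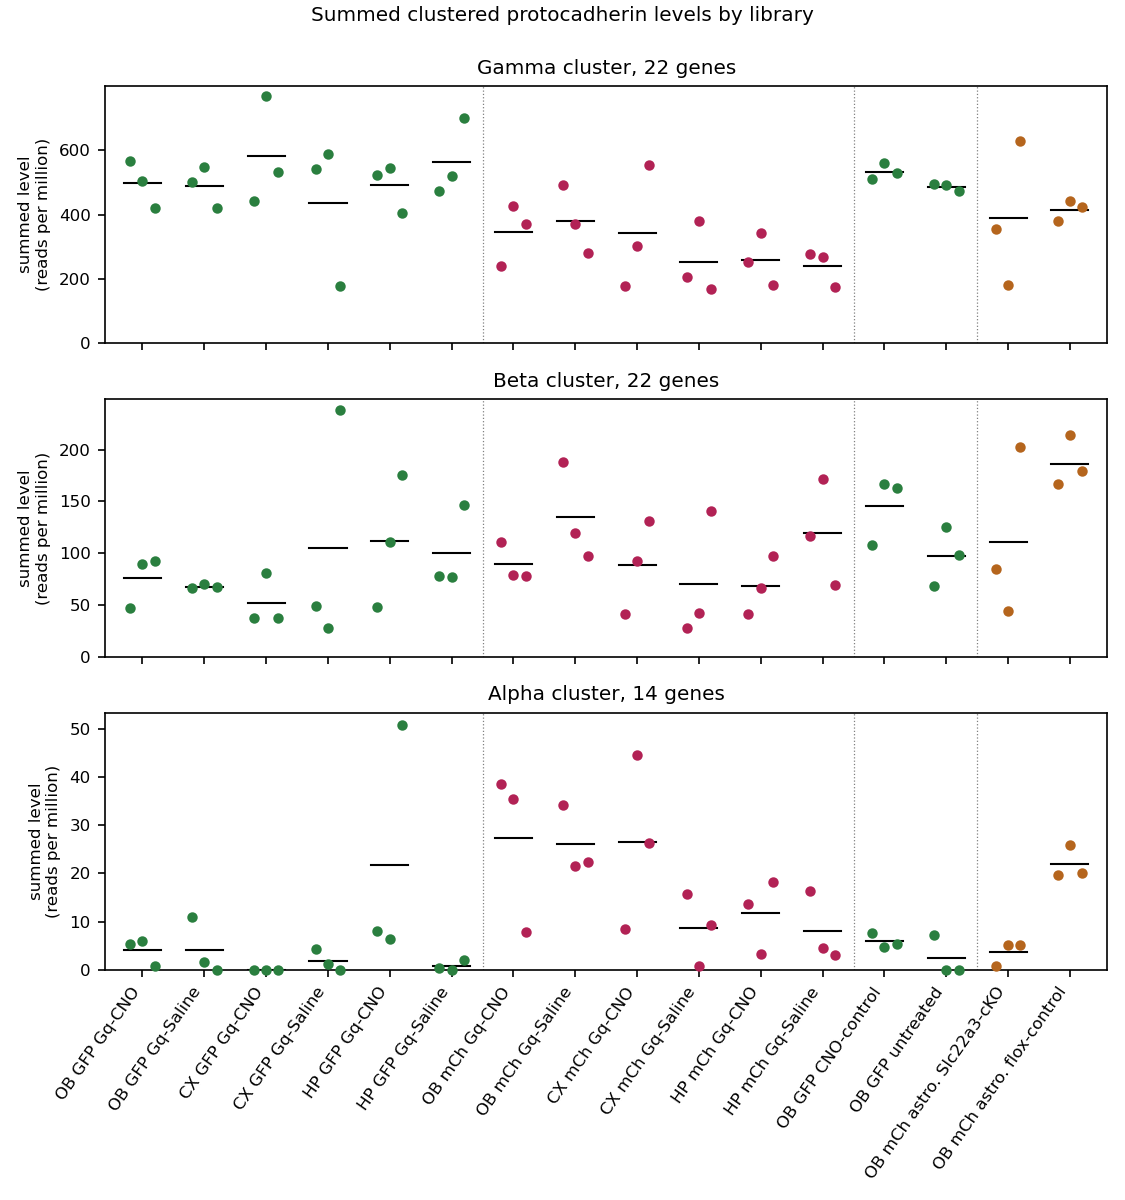
Summed level of each cluster (RPM, vertical axes, from 0) in each of the 48 libraries, by group. Points are libraries (green, GFP sorts; red, mCh sorts of Gq mice; brown, mCh astrocyte sorts) and lines are means of 3; gamma sums are mostly higher in the green points, and alpha sums are near 0 in most of them.

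The number of members with reads was lowest in the shallowest libraries and no higher over 10 M than at 5 to 10 M. In the 3 libraries under 1 M reads 18 to 23 of the 58 members were detected (median 18), in the 18 of 1 to 5 M 21 to 46 (37.5), in the 15 of 5 to 10 M 35 to 53 (49), and in the 12 over 10 M 32 to 53 (46). Of the 58 members, Pcdha4, Pcdha6 and Pcdha7 had 0 reads in all 48 libraries, and Pcdhb1 had 3 reads in 2 libraries. In a shallow library a member at 0 was not detectable at that depth, which does not show that it was absent.

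Within the gamma cluster 1 member led. Pcdhgc3, a C-type gene annotated from 37806410 to 37841873 on chromosome 18, had the most reads of any gamma member in 44 of 48 libraries. Per kilobase of the exon bases that each gene does not share, its median over all libraries was 73.5 RPM per kb. The next gamma members were Pcdhgc5 with 12.1, Pcdhga11 with 7.31, Pcdhga5 with 6.44 and Pcdhgb1 with 5.71 RPM per kb. Pcdhgc4, which lies between Pcdhgc3 and Pcdhgc5, had 1.04 RPM per kb. These 3 C-type genes are the last of the cluster before its constant exons.

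Pcdhgc3 was high in GFP sorts of every region. Its lowest, median and highest levels were 201, 257 and 277 RPM in OB GFP libraries, 103, 270 and 323 RPM in CX GFP libraries, and 150, 239 and 371 RPM in HP GFP libraries. In mCh sorts they were 90.8, 120 and 188 RPM in OB, 46.9, 70.8 and 412 RPM in CX, and 49.5, 85.2 and 119 RPM in HP. The GFP and mCh values did not overlap in OB and in HP. In CX the mCh library at 412 RPM, Gq-CNO library 3, was above every GFP library and was also the shallowest of the series, at 0.228 M reads. Pcdhgc3 made up a median of 48.7% of gamma reads in GFP sorts of Gq mice (37.1% to 57.9%) and 36.04% in mCh sorts (16.1% to 74.6%). In mCh astrocyte sorts it held 9.80% to 27.0%, at 17.9 to 119 RPM.

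**Figure D2:**
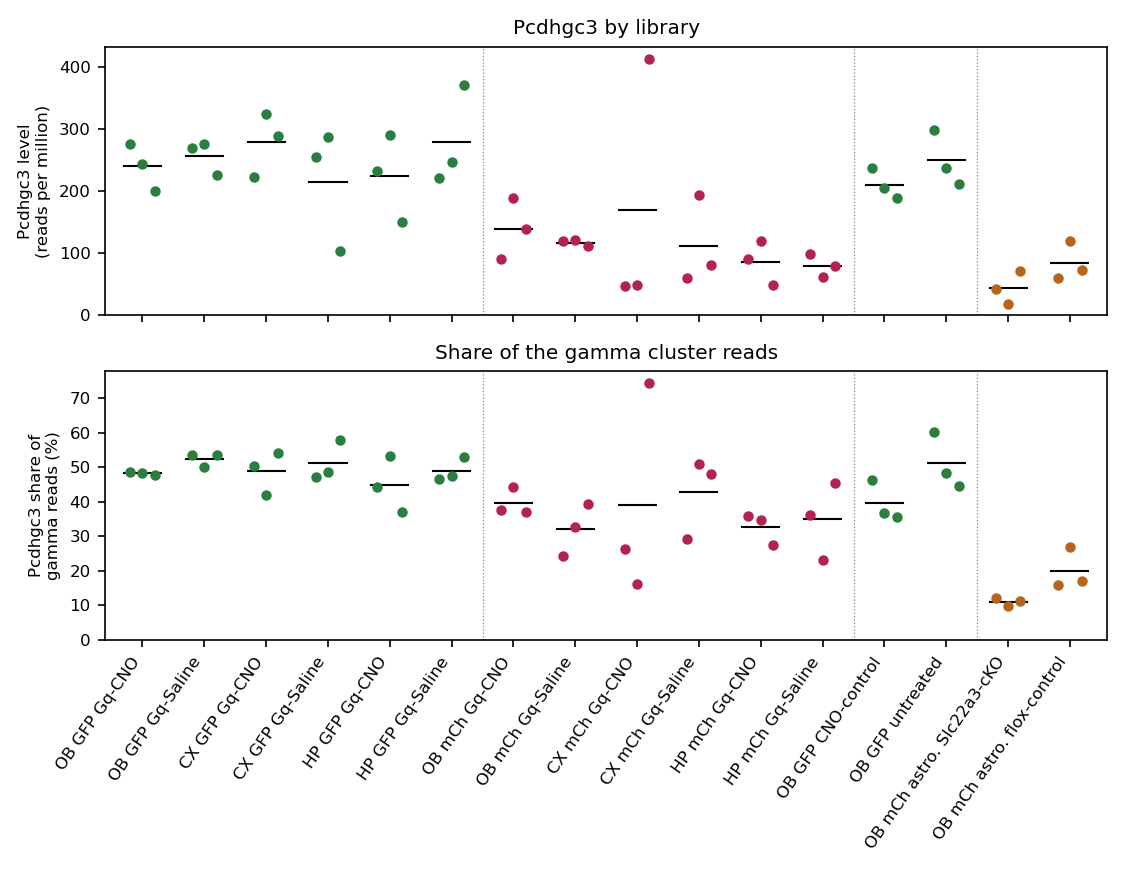
Pcdhgc3 level (RPM, top) and its share of gamma reads (percent, bottom) in each of the 48 libraries by group. Points are libraries coloured by sort (green, GFP; red, mCh of Gq mice; brown, mCh astrocyte sorts) and lines are means of 3; the 412 RPM point is the shallowest library, CX mCh Gq-CNO 3.

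Beta genes had no such leader. A different one of 12 members led depending on the library, most often Pcdhb14 (14 libraries) and Pcdhb16 (11 libraries). The highest median levels were 1.69 RPM per kb for Pcdhb16, 1.24 for Pcdhb14, 0.913 for Pcdhb18, 0.850 for Pcdhb20 and 0.772 RPM per kb for Pcdhb7. Single libraries departed far from these medians. Pcdhb18 was at 122 RPM in 1 HP GFP library while its median over HP GFP libraries was 4.51 RPM, and Pcdhb14 reached 90.4 RPM in 1 CX GFP library against a median of 7.26 RPM.

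Of the alpha genes only Pcdhac2, the C-type gene nearest to the alpha constant exons, had a median above 0, at 0.212 RPM per kb over the 48 libraries. It was the leading alpha member in 17 of the 40 libraries with alpha reads. Its lowest, median and highest values were 0.680, 6.71 and 30.2 RPM in OB mCh, 0, 0 and 31.4 RPM in CX mCh, and 0.441, 2.55 and 6.39 RPM in HP mCh libraries. In GFP sorts of Gq mice it was detected in 8 of 18 libraries. Pcdhac1, the other alpha C-type gene, had reads in 10 libraries and never exceeded 3.17 RPM.

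**Figure D3:**
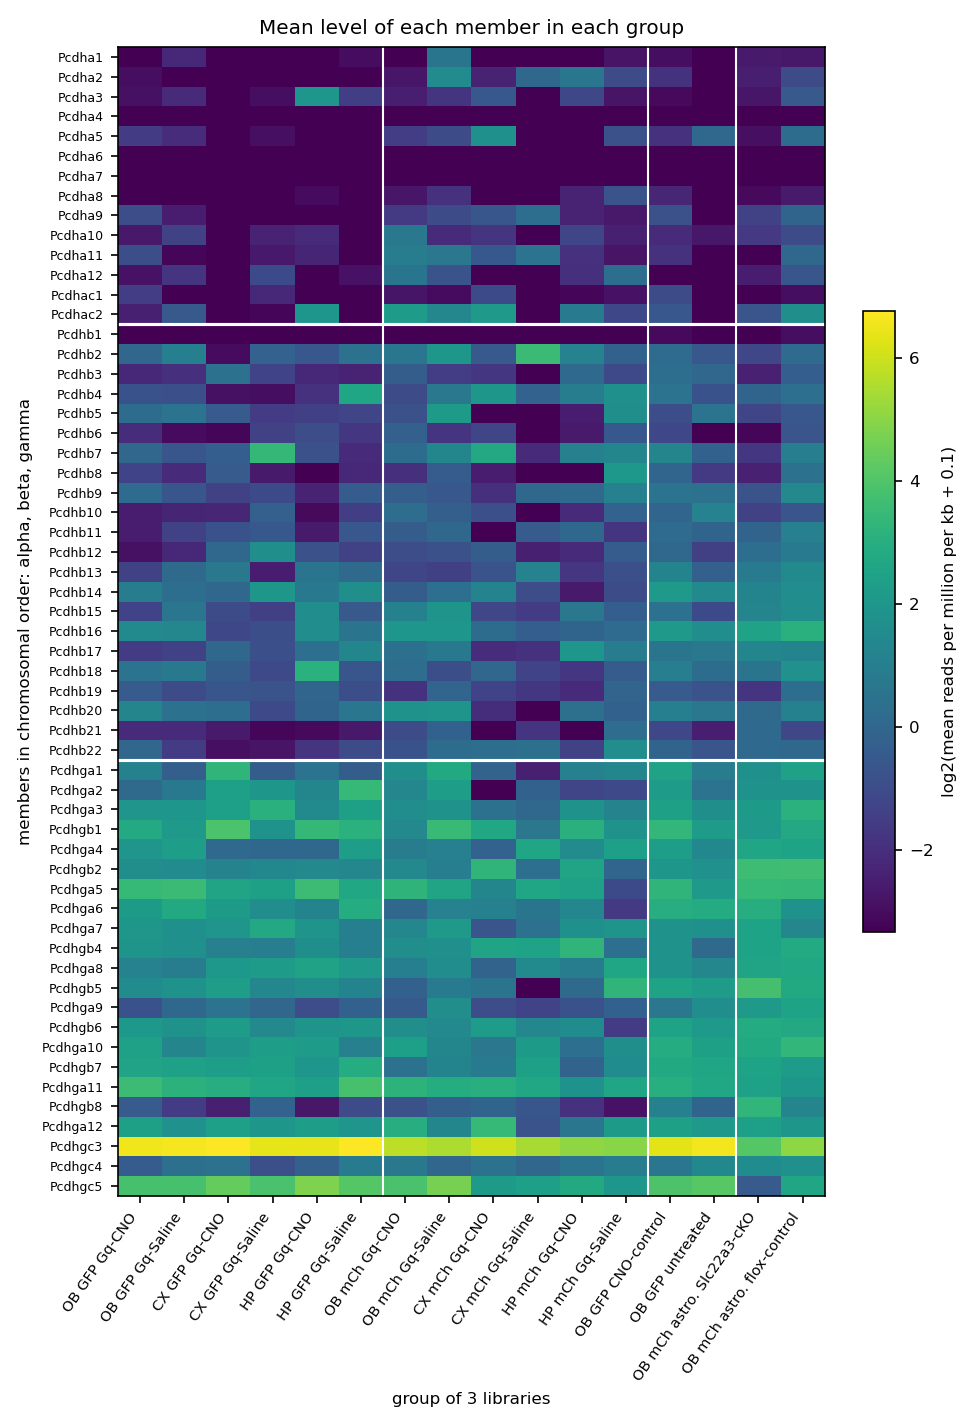
Mean level of each of the 58 members (down the page in chromosomal order: alpha, beta, gamma) in each of the 16 groups of 3 libraries, as log2 of mean RPM per kb plus 0.1 (colour). Pcdhgc3 is the brightest line in all groups, with a median of 73.5 RPM per kb over the libraries, and most alpha lines are dark.

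GFP astrocyte sorts were first set against mCh sorts, both of Gq mice, region by region, with all libraries treated as independent. Gamma members lay mostly on the GFP side in all 3 regions. Called members numbered 2 of 50 tested in OB, both lower in GFP sorts, 7 of 50 in CX, all higher in GFP sorts, and 6 of 50 in HP, of which 5 were higher and 1 lower. A member was tested if it reached a normalised value of 10 in at least 3 libraries, and called where limma's p, adjusted over all genes by Benjamini-Hochberg, was under 0.05. Over all genes tested, 5.3% were called higher and 9.85% lower in OB and 11.3% higher and 15.9% lower in HP. In CX 32% were called, with 2103 of 13832 genes higher and 16.8% lower.

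Of all members tested, 23 of 50 lay above 0 in OB, 35 of 50 in CX and 27 of 50 in HP, beside 50.7%, 51.2% and 48.6% of all genes. Without members that reached 10 in only 1 of the sorts of that region, they were 23 of 40, 27 of 35 and 25 of 41. By cluster, 17 of 22 gamma members in OB, 20 of 22 in CX and 17 of 22 in HP had a log2 difference above 0, with medians of 0.35, 1.40 and 0.81. The medians over all genes were 0.02 in OB, 0.05 in CX and -0.04 in HP. Of the 7 alpha members tested, 4 in OB, 5 in CX and 2 in HP reached 10 in mCh libraries of that region only, so no alpha count is read. Beta members had medians of -0.70 in OB, 0.41 in CX and -0.35 in HP, and of -0.29, 0.17 and 0.06 without those that reached 10 on only 1 side. The gamma medians were above 0 under each alternative scaling tried and without the libraries numbered 4, which changed them to 0.43, 2.38 and 1.48.

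The C-type gamma genes Pcdhgc3 and Pcdhgc5 were called in both CX and HP. Pcdhgc3 was higher in GFP than in mCh sorts by 1.38 ± 0.36 on the log2 scale in CX (SE, adjusted p = 0.00240, limma) and by 1.71 ± 0.36 in HP (adjusted p = 0.000243). In OB the difference was 1.00 with an adjusted p of 0.0508 in limma, just outside the threshold, although no GFP library overlapped an mCh library. It was the 1 member higher without overlap in OB, with 0 lower, beside 5.88% and 8.47% of all genes. Pcdhgc5 had 27.27, 42.5 and 136 RPM (lowest, median, highest) in HP GFP libraries, against 3.14, 16.9 and 21.2 RPM in HP mCh libraries. These groups did not overlap, which in HP held for Pcdhgc3 and Pcdhgc5, both higher, beside 6.39% of all genes higher and 8.91% lower. The difference was 2.20 ± 0.74 (limma, adjusted p = 0.0225). In CX it had 12.2, 49.8 and 74.5 RPM in GFP libraries, against 0, 13.3 and 21.6 RPM in mCh libraries, a difference of 2.68 ± 0.74 (limma, adjusted p = 0.00435).

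Several variable gamma members were called in CX or in HP. Pcdhga7 had 9.23, 15.1 and 23.5 RPM in CX GFP libraries and 0, 0.402 and 11.07 RPM in CX mCh libraries (log2 difference 4.11 ± 0.98, limma adjusted p = 0.000947). Pcdhga2 had 1.02, 8.19 and 23.9 RPM in CX GFP libraries and 0, 0 and 6.03 RPM in CX mCh libraries (4.38 ± 1.12, limma adjusted p = 0.00199). In CX, Pcdhgb5 and Pcdhga3 were also higher in GFP sorts, by 3.22 and 3.03, as was the beta member Pcdhb20, by 2.65. Pcdhga3 and Pcdhga7 were the 2 members in CX whose GFP and mCh libraries did not overlap in scaled values, both higher, beside 5.28% of all genes higher and 6.48% lower. In HP the called variable members were Pcdhga5 (10.2, 18.1 and 55.6 RPM in GFP libraries; 0.684, 1.00 and 22.5 RPM in mCh libraries), Pcdhga2 (log2 difference 2.96) and the beta member Pcdhb14 (0.475, 18.4 and 45.9 RPM in GFP libraries; 0, 1.24 and 5.15 RPM in mCh libraries).

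Alpha members made up the calls on the mCh side. Pcdhac2 had 0, 0.0844 and 5.41 RPM in OB GFP libraries, against 0.680, 6.71 and 30.2 RPM in OB mCh libraries (-3.34 ± 0.96, limma adjusted p = 0.0120). Pcdha11 had 0, 0.0453 and 2.03 RPM in OB GFP libraries, against 1.57, 3.79 and 7.51 RPM in OB mCh libraries (-2.85 ± 0.82, limma adjusted p = 0.0121). Pcdha2 had 0 reads in all 6 HP GFP libraries, against 0, 0.925 and 9.13 RPM in HP mCh libraries, which makes it at least 48.4-fold lower in GFP sorts when 3 reads over the GFP group are taken as the floor (limma adjusted p = 0.0285). Of its 54 reads 40 came from HP mCh Gq-CNO library 3, and without that library the bound was 14.7-fold and the call was lost (limma adjusted p = 0.118). In these regions Pcdha11 and Pcdha2 reached a scaled value of 10 in mCh libraries only, as Pcdhb20 in CX and Pcdhga2 in HP did in GFP libraries only. Each of these alpha members had some overlap between the sorts.

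edgeR's quasi-likelihood test on the recovered reads called 1 higher and 1 lower member of 50 in OB, 6 higher and 4 lower in CX, and 7 higher and 2 lower in HP. Of all 13832 genes it called 814 higher and 1410 lower in OB, 2080 and 2096 in CX, and 1783 and 2245 in HP. Of the 7 CX calls of limma, 6 were shared with edgeR, and in HP all 6 were. Pcdhb20 in CX kept its call in 3 of 8 other settings and in 14 of 36 fits that each left out 1 library. In HP, Pcdhgc5 lost its call with the replicate block (adjusted p = 0.135) and without the libraries numbered 4 (0.122), and Pcdha2 with these and with a pseudocount of 5. Pcdha11 in OB lost its call in edgeR, Pcdhga3 in CX and Pcdhga2 in HP in 2 settings each, and Pcdhga5 in HP in 1. Calls kept in all 8 settings were those of Pcdhac2 in OB, Pcdhga2, Pcdhga7, Pcdhgb5, Pcdhgc5 and Pcdhgc3 in CX, and Pcdhb14 and Pcdhgc3 in HP. Without the libraries numbered 4, 4 of 49 members were called in OB, 12 in CX and 8 in HP. Of all 13869 genes tested in that setting, 2669, 4875 and 3879 were called.

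Markers of other cells moved with these comparisons. In each region all 12 microglial markers and all 9 oligodendrocyte markers tested were lower in GFP sorts, and 13 (OB) or 14 (CX, HP) of 14 astrocyte markers were higher. Over the Gq libraries summed microglial markers were 92.3 to 3236 RPM in GFP sorts and 5411 to 17307 RPM in mCh sorts, and oligodendrocyte markers were 761 to 3678 and 18402 to 61001 RPM. Summed neuron markers were 582 to 1663 RPM in GFP sorts and 1848 to 5140 RPM in mCh sorts, with 7 (OB), 12 (CX) and 8 (HP) of 13 called lower. None of these astrocyte, neuron, microglial or oligodendrocyte markers was at 0 in every library of either sort, and their part in the protocadherin differences was not tested. Depth differed as well, since CX GFP libraries had 0.325 to 16.4 M reads and CX mCh libraries 0.228 to 2.49 M.

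**Figure D4:**
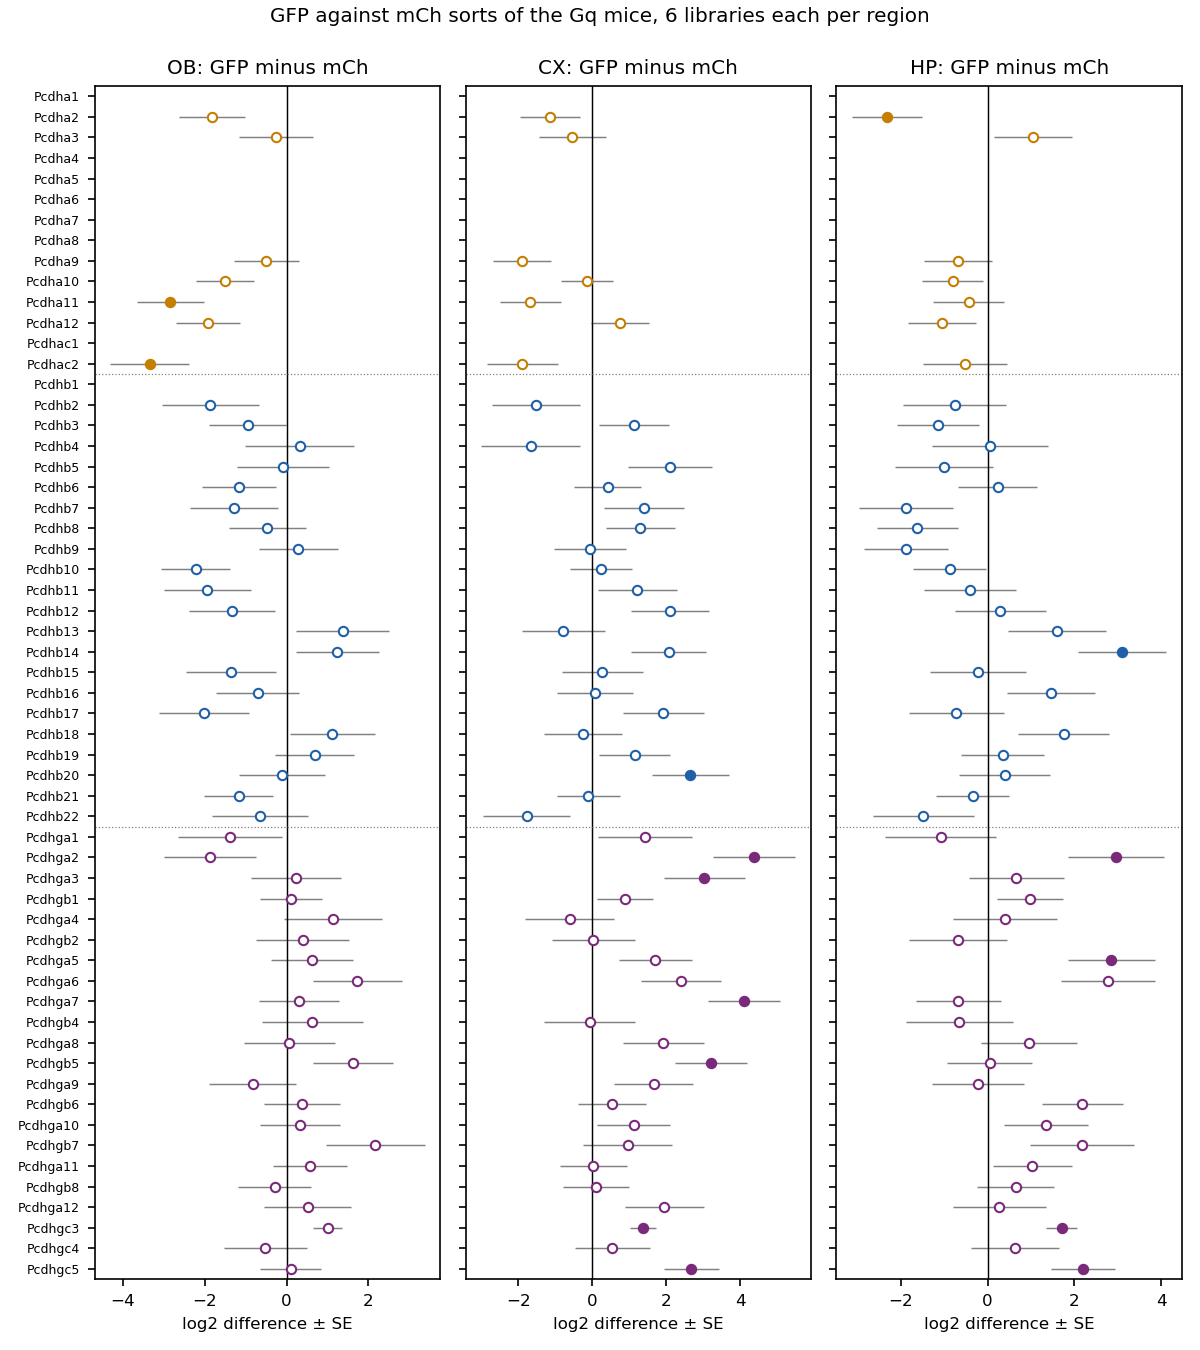
GFP minus mCh difference of each tested member (horizontal axes, log2 ± SE from limma, 6 libraries each per region) in OB, CX and HP, with members in chromosomal order. Filled points passed an adjusted p under 0.05 (2, 7 and 6 members; orange alpha, blue beta, purple gamma), and most purple points lie right of 0.

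Whether the GFP against mCh difference varied between regions was tested for each member with an F-test in limma. It was called for 1 of 50 members, Pcdhga2 (adjusted p = 0.0397), with 2.21% of all genes called. Its GFP minus mCh difference was -1.87 ± 1.12 in OB, 4.38 ± 1.12 in CX and 2.96 ± 1.12 in HP. edgeR called 0 members in this test.

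Among mCh sorts, OB libraries tended to have higher levels than CX libraries. Of 39 members tested 37 had a log2 difference above 0, where 66% of all genes did, and the median was 1.05 for members and 0.39 for all genes. The 39 include 5 that reached 10 in OB but not in CX libraries and 1 the other way. Without these, 32 of 33 members were above 0, with a median of 0.96. Called members were Pcdhga2 and Pcdhb20, both higher in OB, with 5.58% of all genes called higher and 2.99% lower. Pcdhga2 had 2.09, 5.65 and 30.8 RPM in OB mCh libraries and was detected in 1 of 6 CX mCh libraries, at 6.03 RPM (3.39 ± 0.96, limma adjusted p = 0.0216). Pcdhb20 had 0, 4.49 and 35.9 RPM in OB mCh libraries and 0, 0 and 1.63 RPM in CX mCh libraries (3.24 ± 1.03, limma adjusted p = 0.0426). No member was free of overlap between the groups, beside 2.7% of all genes higher and 1.59% lower, and Pcdhb20 reached a scaled value of 10 in OB libraries only. OB mCh libraries were deeper (1.75 to 5.88 M reads) than CX mCh libraries, 2 of which held under 1 M, and without those shallow libraries 0 members were called. By edgeR 28 of 39 members were above 0, with a median of 0.64 for members and 0.17 for all genes.

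No member was called between OB and HP mCh sorts in limma (0 of 39, with 3.91% of all genes called), and none between CX and HP mCh sorts (0 of 39, with 0.388%). At an unadjusted p under 0.05 these had 4 and 6 members, and edgeR called 0 in both. Members above 0 numbered 29 of 39 for OB against HP (57.6% of all genes) and 12 of 39 for CX against HP (38.3%). Without members that reached 10 in only 1 of the 2 regions compared, they were 27 of 37 and 10 of 31. Pcdha11 was the only member whose OB and HP mCh libraries did not overlap, with 1.57, 3.79 and 7.51 RPM in OB and 0, 0.163 and 0.913 RPM in HP (2.69 ± 0.94, limma adjusted p = 0.118), beside 2.14% of all genes higher and 1.24% lower. Of these 2 regions, Pcdha11 and Pcdhga2 reached a normalised value of 10 in OB libraries only, so the filter favoured their direction. Between CX and HP no member was free of overlap, beside 0.348% and 0.316% of all genes. For OB against HP, Pcdhga2, Pcdhga5 and Pcdhb16 also had small unadjusted p-values, with differences of 2.82, 2.42 and 2.20. Between CX and HP the smallest belonged to Pcdhb17, Pcdhgb5, Pcdhga7 and Pcdhb20, with differences of -3.26, -2.63, -2.49 and -2.46. Of these 4, Pcdhb17 and Pcdhb20 reached 10 in HP but not in CX libraries, so the filter favoured their direction.

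The GFP sorts showed no called member between regions either. OB against CX had 0 of 50 members called in limma (4.59% of all genes), OB against HP 0 of 50 (3.64%) and CX against HP 0 of 50 (0.325%). At an unadjusted p under 0.05 these had 5, 0 and 3 members, and edgeR called 0 in each. Members above 0 numbered 32, 33 and 21 of 50, beside 65.7%, 60.2% and 42.8% of all genes. Without members that reached the filter's minimum in a single compared region, they were 28 of 42, 29 of 43 and 15 of 39. Only Pcdhga4, higher in OB than in CX, was free of overlap, where the shares of all genes were 3.16% higher and 1.71% lower for OB against CX, 3.07% and 1.68% for OB against HP, and 0.296% and 0.347% for CX against HP. The member median of OB against CX was 0.33, beside 0.32 for all genes, and was -0.36 without the libraries numbered 4. The smallest unadjusted p-values for OB against CX belonged to Pcdhb12 (-2.83), Pcdhb16 (2.54), Pcdhga4 (2.71) and Pcdhb18 (2.33), as log2 differences. For OB against HP they belonged to Pcdhb17 (-1.86), Pcdhac2 (-1.48), Pcdhga2 (-1.70) and Pcdhb9 (1.34). For CX against HP they belonged to Pcdhac2 (-2.58), Pcdhb16 (-2.39), Pcdhga7 (1.98) and Pcdhga3 (2.16). Between OB and CX, Pcdhb12 reached the filter's minimum in CX libraries only. Between CX and HP, Pcdhac2 reached it in HP libraries only, so the filter could favour the direction of each.

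Gq-CNO libraries were compared with Gq-Saline libraries within each region and sort, which bears on whether activating the receptor changes these genes. No member was called in any of the 6 comparisons by limma or by edgeR. In OB GFP astrocytes 0 of 33 tested members were called, with 0.00847% of all genes called, and the median member difference was 0.17. Member medians were 0.81 in CX GFP, -0.34 in HP GFP, 0.04 in OB mCh, -0.56 in CX mCh and 0.30 in HP mCh. Without the libraries numbered 4 they were 0.00495 in CX GFP and 0.13 in HP GFP, and in edgeR they were -0.22 in OB mCh, 0.27 in CX mCh and -0.24 in HP mCh. In the other 5 comparisons 0% of all genes were called. Members at an unadjusted p under 0.05 in limma numbered 0 of 33 in OB GFP, 0 of 26 in CX GFP, 3 of 35 in HP GFP, 2 of 26 in OB mCh, 0 of 18 in CX mCh and 2 of 18 in HP mCh. In edgeR they numbered 0, 1, 3, 2, 2 and 3 in the same order. Differences above 0 were found for 21 of 33 members in OB GFP (50.6% of all genes), 18 of 26 in CX GFP (52.2%), 14 of 35 in HP GFP (47%), 13 of 26 in OB mCh (52%), 8 of 18 in CX mCh (47.1%) and 10 of 18 in HP mCh (50.4%). Without members that reached 10 in only 1 of the groups, they were 17 of 25 in CX GFP and 13 of 33 in HP GFP. Of the alpha genes, 1 was tested in HP GFP and 2 in OB mCh sorts, and none in the other 4 comparisons.

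In OB GFP astrocytes the smallest unadjusted p was that of Pcdhga10, which had normalised values of 110, 103 and 133 in Gq-CNO libraries, against 69.9, 40.2 and 36.05 in Gq-Saline libraries. The groups did not overlap, and the difference of 1.27 ± 0.63 had an adjusted p of 0.996 in limma. Pcdhgb1 did not overlap either, at 177, 130 and 140 with Gq-CNO and 84.5, 103 and 80.4 with Gq-Saline. These were the 2 members whose groups did not overlap upward, with 0 downward, beside 4.89% and 5% of all genes. Pcdhb13 and Pcdhb7 were the others with the smallest p, at -2.51 and 1.79.

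In CX GFP astrocytes Pcdhgb1 had the smallest p, with 74.5, 104 and 345 in Gq-CNO libraries, against 44.7, 61.7 and 0 in Gq-Saline libraries (3.30 ± 1.57, limma adjusted p = 0.910). The value of 345 came from the shallow library 4 and the 0 from the library with high microglial signal. Pcdhb7 (-3.20), Pcdhgb5 (2.25) and Pcdhb17 (2.44) followed. Pcdhb7 reached 443 in that same Gq-Saline library 4 and at most 23.4 in the other 5 libraries. Without overlap 3 members were higher and 1 lower, beside 4.46% and 4.43% of all genes. The 3 include Pcdhgc4, which reached the filter's minimum in Gq-CNO libraries only, so the filter fixed its lack of overlap.

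In HP GFP astrocytes Pcdhac2 had 76.3, 42.1 and 268 in Gq-CNO libraries and 0 in all 3 Gq-Saline libraries. With 302 reads against 0 this is at least 103-fold higher in Gq-CNO libraries, taking 3 reads over the group as the floor, and limma gave 6.59 ± 1.81 with an adjusted p of 0.976. It reached the filter's minimum of 10 in Gq-CNO libraries only, so it could be tested only as higher. Pcdhga11 had 240, 127 and 16.8 in Gq-CNO libraries and 346, 342 and 483 in Gq-Saline libraries, without overlap (-2.24 ± 0.93, limma adjusted p = 0.976). Pcdhga4 (-3.63) did not overlap either, and Pcdhb4 (-4.60) did. Counting Pcdhac2, and Pcdhb11 which reached 10 in Gq-Saline libraries only, 2 members were higher and 5 lower without overlap, beside 4.18% and 4.68% of all genes.

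In the mCh sorts the smallest p-values scattered over both variable gamma and beta genes. In OB mCh libraries Pcdhgb1 had 12.6, 13.1 and 23.7 with Gq-CNO, against 110, 35.96 and 69.8 with Gq-Saline (-1.98 ± 0.79, limma adjusted p = 0.900), a sign opposite to those of OB and CX GFP sorts, a difference that was not tested. Pcdhga12, Pcdhb15 and Pcdhb2 had differences of 2.22, -1.91 and -1.59. Pcdhgb1 was the 1 member lower without overlap, with 0 higher, beside 4.88% and 5.72% of all genes. In CX mCh libraries Pcdhga12, Pcdhb14, Pcdhgb4 and Pcdhga10 had differences of 3.34, 2.80, -2.52 and -2.27. All 18 members overlapped between the groups, beside 4.65% of all genes higher and 4.98% lower without overlap. In HP mCh libraries Pcdhgb2 had 37.1, 37.2 and 31.5 with Gq-CNO, against 5.34, 10.6 and 0 with Gq-Saline (3.11 ± 1.33, limma adjusted p = 0.990), and Pcdhb22, Pcdhga8 and Pcdhgb5 had -3.02, -2.42 and -2.24. Without overlap 1 member was higher and 2 lower, beside 4.81% and 4.67% of all genes.

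Differences of the Gq-CNO effect between regions were called by limma for 0 of 50 members in GFP sorts (0% of all genes) and 0 of 50 in mCh sorts (0.0217%). At an unadjusted p under 0.05 there were 1 and 6 members, and edgeR called 0 in both. Pcdhac2 had the smallest p in GFP sorts (adjusted p = 1), followed by Pcdhb7, Pcdhga11 and Pcdhgb1. In mCh sorts Pcdha2, Pcdhga12, Pcdhb14 and Pcdhgb5 had the smallest p-values, each with an adjusted p of 0.765.

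OB GFP astrocytes labelled CNO-control were set against untreated ones, a comparison of the ligand and its handling without the Gq label. Many genes differed here (12.2% called), but 0 of 37 tested members did in limma, and 0 did in edgeR. Of the members 3 had an unadjusted p under 0.05 in either tool. The members nevertheless leaned upward, with 29 of 37 above 0, where 55.6% of all genes were, and a median of 0.50, where that of all genes was 0.11. Scaling by total reads moved the median of all genes to 0.37 and that of members to 0.79, and edgeR gave 0.00 and 0.18. Without Pcdhb15, which reached 10 in CNO-control libraries only, 28 of 36 members were above 0. Of the 15 beta members tested 13 were above 0, as were 16 of 22 gamma members, and no alpha member passed the filter.

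Pcdhgc3 went against this lean. It had normalised values of 908, 742 and 683 in CNO-control libraries, against 1401, 1012 and 916 in untreated libraries, with no overlap (-0.50 ± 0.19, limma adjusted p = 0.114). In RPM the groups did overlap, at 237, 206 and 189 in CNO-control libraries and 299, 238 and 212 in untreated libraries. Pcdhga1 had 52.7, 59.3 and 82.9 in CNO-control libraries and 37.5, 29.6 and 10.2 in untreated libraries (1.45 ± 0.60, limma adjusted p = 0.138). Pcdhga2 had 53.9, 48.4 and 31.324 in CNO-control libraries and 13.8, 24.7 and 7.28 in untreated libraries (1.60 ± 0.67, limma adjusted p = 0.146). Pcdhgb1 had 71.3, 121 and 97.0 in CNO-control libraries and 47.4, 54.3 and 55.4 in untreated libraries (0.84 ± 0.40, limma adjusted p = 0.199). In all, 6 members were higher and 1 lower without overlap in normalised values, beside 16.7% and 16.2% of all genes. The 6 include Pcdhb15, which reached 10 in CNO-control libraries only, so the filter fixed its lack of overlap.

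The libraries differed in more than the label. CNO-control libraries had 6.62 to 8.58 M reads and untreated libraries 1.72 to 2.96 M. Summed microglial markers were 113 to 201 RPM in CNO-control libraries and 664 to 789 RPM in untreated libraries, and 10 of 12 microglial markers were called lower. Markers of olfactory ensheathing glia, some of which oligodendrocytes also express, summed to 1696 to 3047 RPM in CNO-control libraries and 778 to 1149 RPM in untreated libraries, with 3 of 4 called higher. Their part in the member differences was not tested.

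The libraries labelled Slc22a3-cKO were set against flox controls. Slc22a3 itself had 0, 0 and 1.60 RPM in the libraries labelled Slc22a3-cKO and 0 RPM in all 3 flox controls, so the targeted gene could not check the labels. The alpha sum was 0.708, 5.23 and 5.07 RPM in the libraries labelled Slc22a3-cKO, against 19.7, 25.8 and 20.1 RPM in flox controls, without overlap. The beta sum was 84.3, 44.2 and 203 RPM in the libraries labelled Slc22a3-cKO, against 166, 214 and 179 RPM in flox controls. The gamma sum was 355, 182 and 627 RPM in the libraries labelled Slc22a3-cKO, against 381, 441 and 423 RPM in flox controls. Library 3 of the label was thus within or above the flox range for beta and gamma but not for alpha. Pcdhgc3 held 12.2%, 9.80% and 11.4% of gamma reads in the libraries labelled Slc22a3-cKO, against 15.9%, 27.0% and 17.2% in flox controls.

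Of the 46 members tested 0 were called by limma, with 2.53% of all genes called, and 0 by edgeR, while 9 in limma and 6 in edgeR had an unadjusted p under 0.05. The members leaned downward: 34 of 46 were below 0, with a median of -0.82, where 45.5% of all genes were above 0 and their median was -0.10. Scaling by total reads gave medians of -1.06 for members and -0.29 for all genes, and edgeR gave -0.43 and -0.01. Pcdha5, Pcdha11, Pcdhb3 and Pcdhb8 reached 10 in flox controls only, so the filter fixed their direction. Without these 4 members 30 of 42 were below 0 (median -0.71), among them 16 of 18 beta members (median -1.43). Gamma members split into 12 below and 10 above 0 (median -0.04). Without overlap, 10 members were lower and 1 higher, beside 12.2% and 10.6% of all genes. The 10 include Pcdha5, Pcdha11, Pcdhb3 and Pcdhb8, whose lack of overlap the filter had also fixed.

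Pcdha11 had normalised values of 0 in all 3 libraries labelled Slc22a3-cKO, against 10.9, 31.1 and 21.6 in flox controls, which is at least 23.9-fold lower with a floor of 3 reads over the group (limma -4.36 ± 1.35, adjusted p = 0.108). Pcdha5 had 0, 2.46 and 0 in the libraries labelled Slc22a3-cKO and 22.8, 34.0 and 11.3 in flox controls (-3.84 ± 1.34, limma adjusted p = 0.150). Pcdhac2 had 0, 29.5 and 20.4 in the libraries labelled Slc22a3-cKO and 72.8, 97.6 and 88.3 in flox controls (-3.32 ± 1.27, limma adjusted p = 0.185). These 3 alpha members did not overlap between the groups, which for Pcdha11 and Pcdha5 the filter had fixed. Among beta genes Pcdhb19 had 0, 0.820 and 37.0 in the libraries labelled Slc22a3-cKO and 96.5, 59.98 and 66.8 in flox controls (-4.17 ± 1.37, limma adjusted p = 0.128). A pair of gamma members that did not overlap were picked after their values were seen. Pcdhgc5 had 2.44, 39.3 and 11.5 in the libraries labelled Slc22a3-cKO and 57.4, 338 and 40.1 in flox controls (-2.96). Pcdhgb8 had 297, 59.8 and 368 in the libraries labelled Slc22a3-cKO and 52.8, 46.2 and 50.3 in flox controls (1.89).

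Leaving out library 3 of the Slc22a3-cKO label gave 4 called members in limma, and leaving out any other single library gave 0. The share of all genes called in that fit is not given here, so the 4 are not read as a result about the members. Neuron markers moved with the same contrast, with summed levels of 427 to 1212 RPM in the libraries labelled Slc22a3-cKO and 1517 to 4487 RPM in flox controls, and 4 of 13 markers called lower. Astrocyte markers summed to 2140 to 6695 RPM in the libraries labelled Slc22a3-cKO and 7192 to 14476 RPM in flox controls, with 3 of 14 called lower. Microglial markers summed to 7034 to 15686 RPM in the libraries labelled Slc22a3-cKO and 5401 to 11963 RPM in flox controls, with 0 of 12 called. Their part in the member differences was not tested.

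**Figure D5:**
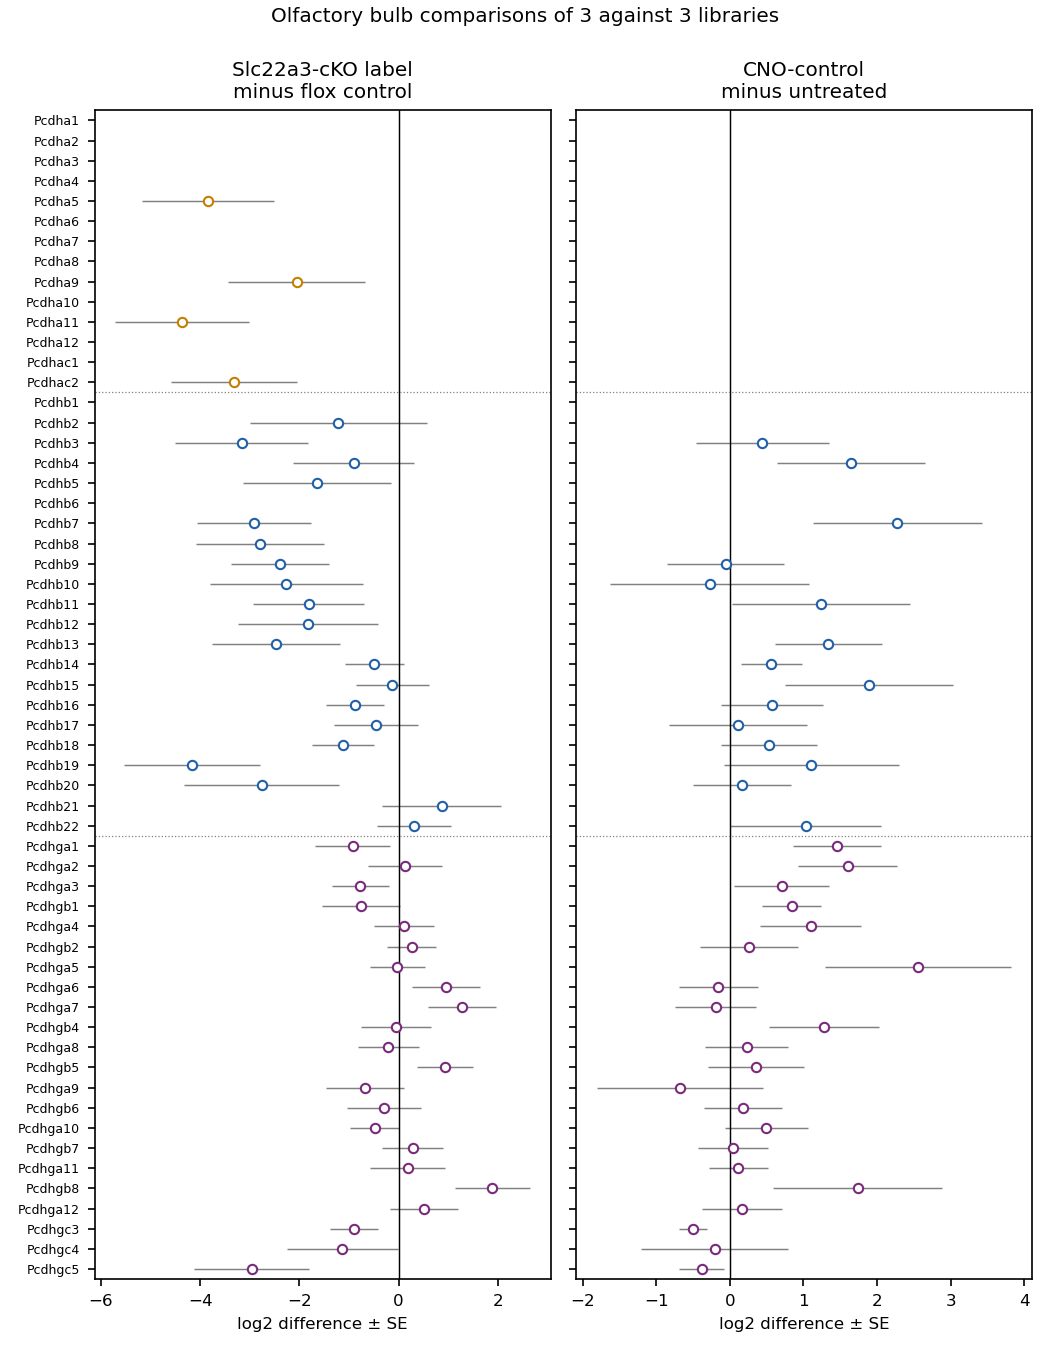
Difference of each tested member in the OB comparisons of 3 against 3 libraries (horizontal axes, log2 ± SE from limma; left, Slc22a3-cKO label minus flox control; right, CNO-control minus untreated), in chromosomal order. All points are open because 0 members were called; on the left 34 of 46 lie below 0, with gamma members on both sides of 0, and on the right 29 of 37 lie above 0.

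Other genes of the pathway were counted from 4 lists, in which limma called 0 genes in each of the 6 Gq-CNO comparisons. The list on promoter choice holds 24 genes for CTCF, cohesin and its loader, DNA methylation and silencing. Of all 13832 genes tested for GFP against mCh sorts, 733 were called higher and 1362 lower in OB, 2103 and 2318 in CX, and 1568 and 2203 in HP. In CX 1 of the 22 listed genes tested was higher and 8 lower, in OB 1 was lower and in HP 1 was lower, and the regions were not tested against each other. The lower genes in CX included Smchd1, a chromatin protein known to repress clustered protocadherin genes (-1.16, limma adjusted p = 0.0028), and the cohesin genes Pds5b (-0.89) and Smc1a (-0.78). In CNO-control against untreated libraries, where 579 of all 10940 genes were called higher and 753 lower, 3 of 21 were higher, all of cohesin: Smc1a by 0.83, its regulator Pds5a by 0.83 and Stag1 by 0.78. In the Slc22a3-cKO label comparison, where 184 of all 13465 genes were called higher and 157 lower, 0 of 22 were called by limma.

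The list of 26 partners and signalling genes included Marcks, a membrane-actin linker, and Fyn, a tyrosine kinase. Both were lower in GFP than in mCh sorts in all 3 regions, Marcks by -1.83 in OB, -4.06 in CX and -3.50 in HP, and Fyn by -1.29, -1.73 and -2.05. Of the 26, 2 were higher and 8 lower in OB, 3 and 14 in CX, and 2 and 11 in HP, beside the 1362, 2318 and 2203 genes lower of all 13832. In the Slc22a3-cKO label comparison 1 of 25 was called, Cyfip2 of the WAVE actin complex, at -1.9997 (limma adjusted p = 0.013).

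The non-clustered protocadherins lie outside the 3 clusters. In the Slc22a3-cKO label comparison all 11 tested were below 0 (median -1.64), where 45.5% of all genes were above 0. Of the 11, 3 were called lower, beside 157 of all 13465 genes. They were Pcdh1 by -3.09 (limma adjusted p = 0.035), Pcdh10 by -2.20 and Pcdh7 by -2.59 (limma adjusted p = 0.039 each). Pcdh10 was higher in GFP than in mCh sorts, by 0.92 in OB, 1.90 in CX and 1.68 in HP, and Pcdh15 was lower, by -3.59, -6.49 and -6.44. Between OB and CX mCh sorts 4 of 12 were higher in OB, beside 5.58% of all genes. They were led by Cdhr1 at 7.90, a photoreceptor cadherin gene that is also a marker of olfactory bulb output neurons. For GFP against mCh sorts 733 of all 13832 genes were called higher and 1362 lower in OB. The counts were 2103 and 2318 in CX, and 1568 and 2203 in HP. Of 24 classical cadherins and catenins tested, 3 were higher and 3 lower in GFP than in mCh sorts in OB, 8 and 6 in CX, and 4 and 5 in HP. In this list 4 of 19 were higher and 2 lower in CNO-control than in untreated libraries, beside 5.29% and 6.88% of all genes, among them Ctnnb1, the beta-catenin gene, at -1.43 (limma adjusted p = 0.00030). In the Slc22a3-cKO label comparison 0 of 22 were called, by limma.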

How the data were processed

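The deposited values are gene counts that the authors had divided by a size factor per library, a signal on a linear scale in 6 tables normalised separately. Per the submitters' processing notes, FastQC 0.11.7, MultiQC 1.11, STAR 2.5.0a, DESeq2 1.30.1 and mm10 were named; the counting tool and annotation are not given in the sources used here. Per the labels' protocols, libraries were made from 10 ng of total RNA. All values came out as whole reads within 0.05 when divided by each library's smallest positive value, and these reads gave RPM. Because the unit is not counts, limma 3.58.1 with a trend on log2(value + 1) was used in R 4.3.3; fold changes of low genes are understated. Comparisons across tables used recovered reads scaled by median-ratio size factors over 36 libraries, all sharing 1 estimate of spread. Genes needed a value of 10 in 3 libraries, and p-values were adjusted over all genes. edgeR 4.0.16 on recovered reads, another pseudocount, no filter, no trend, scaling to RPM, a replicate block and left-out libraries were alternatives. The code was tested on simulated data. Libraries numbered 4 were assigned to a group only. Members named per comparison were the called ones and otherwise the 4 with the smallest p; for levels, the 5 highest per cluster by RPM per kb, the C-type members and those at 0 in all libraries; per gene list, up to 4 by smallest p. Exceptions are said in the text. Members and lists were chosen with earlier results of these data known.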

Additional observations from a re-analysis of the deposited data

Results flagged for a closer look

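The GFP against mCh difference of Pcdhga2, a variable gamma member, varied between regions (limma F-test, adjusted p = 0.0397). It was -1.87 on the log2 scale in OB, 4.38 in CX and 2.96 in HP, with an SE of 1.12 in each. The call was kept in 4 of 8 other settings and in 21 of 36 fits that each left out 1 library, with adjusted p-values of 0.00919 to 0.121, and edgeR did not make it. Pcdhga2 had reads in 1 of 6 CX mCh libraries, the group with the lowest depth.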

How the results depend on the processing

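Of 163 counts and sums under other settings, 151 stayed within the range taken as unchanged and 12 did not. Without a low-value filter 1 member was called in CNO-control against untreated libraries, 1 between OB and CX mCh sorts and 0 for the GFP against mCh difference by region. Without the mean-variance trend 1 was called for the Slc22a3-cKO label, 1 between OB and CX mCh sorts and 0 by region. Without libraries under 1000000 reads 0 were called between OB and CX mCh sorts and 0 by region, where edgeR also called 0. Without the libraries numbered 4, an alternative chosen after seeing the data, 4 of 49 were called in OB and 12 in CX for GFP against mCh. Of all 13869 genes, 2669 and 4875 were called there. The median of all genes moved by 0.38 in CX and 0.31 in HP. The cause was not tested. In edgeR 2 members changed sign, Pcdhgb4 for Gq-CNO in CX mCh (0.11) and Pcdhac2 for OB against HP in GFP (0.39). Leaving out 1 library at a time gave 0 to 4 called members for the Slc22a3-cKO label (4 without its library 3) and 0 to 5 between OB and CX mCh sorts (0 without OB Gq-CNO 3, OB Gq-Saline 2 or CX Gq-Saline 1, and 5 without OB Gq-Saline 3). For GFP against mCh it gave 1 to 4 in OB, 5 to 10 in CX (10 without CX GFP Gq-Saline 4), 3 to 8 in HP (3 without HP mCh Gq-CNO 3) and 0 to 2 by region. It gave 0 in all other comparisons. The shares of all genes called in these fits are not given here, so the counts show only how far the calls depend on single libraries. Same-numbered libraries of different treatments or sorts had deviations from their group means that correlated at -0.108 to 0.0866. Such deviations also carry the noise of each library, so they cannot show whether same-numbered libraries came from the same animal. With the number as a replicate block, 2 members were called by region, 3 in OB, 9 in CX and 7 in HP for GFP against mCh, 3 between OB and CX mCh sorts, and 0 elsewhere. CX mCh sorts held 0.228 to 2.49 M reads, which limits what can be detected there.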
